A study of Rattus norvegicus with 13 samples.

Results

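ATP-binding cassette (ABC) transporter genes were taken from a table of RNA-seq values for rat mammary epithelial cells, as every gene whose symbol starts with Abc, a subfamily letter from a to g and a number. This gave 35 of 14790 genes, of which 10 belong to subfamily A, 5 to B, 7 to C, 4 to D, 1 to E, 3 to F and 5 to G. All 35 entered the test, since no minimum was set. ABC proteins bind and hydrolyse ATP, and most use it to move a substrate across a membrane: lipids and sterols in subfamilies A and G, drugs, conjugates and ions in B and C, and fatty acids in D. Members of subfamilies E and F have no membrane part and act on ribosomes. In the mammary gland, ABC transporters are known for moving sterols out of cells and for carrying drugs and vitamins into milk.

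Cells came from Wistar-Furth rats, a strain susceptible to mammary cancer, aged 6 weeks, which lies within their window of susceptibility (WOS), or 10 weeks, outside WOS. There were 6 rats within WOS (rats 70, 71, 75, 80, 84 and 86) and 7 outside WOS (rats 72, 74, 78, 81, 83, 85 and 87), with 1 library each, and no treatment is named for any rat. Abdominal and inguinal glands without lymph nodes were digested with collagenase, and ductal fragments retained on a filter were used, which also carry stromal fibroblasts and immune cells. Values are counts that had been scaled per library and rounded, called normalized counts here, and their totals ran from 13261906 to 15659533 per rat. These totals follow the scaling and are not the sequencing depth, so no counting interval is given. Each p-value sets the difference between the ages against the spread between rats.

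The fragments carried the epithelial markers *Epcam*, *Cdh1*, *Krt5*, *Krt8*, *Krt14*, *Krt18* and *Krt19* in every rat, with a summed normalized count between 39191 and 69865. Libraries did not differ by age alone. On the largest component of variation within the ages, which held 28.3% of it, 5 rats stood apart from the other 8. The smaller set held rats 75 and 80 within WOS and rats 78, 81 and 83 outside WOS, and no label names this split. Of the whole numbers from 1 to 30, 10 were absent in rat 75, 15 in rat 80, 16 in rat 78 and 7 in rat 81. Rat 83 lacked 0, while in the larger set rat 74 lacked 8 and rats 72 and 87 lacked 4 each. Genes at 0 numbered 463 in rat 80 and 434 in rat 78, against 73 to 218 in the other rats. Depth before scaling is not known, and its part in the split was not tested. Values of the DE ABC genes are given for both sets, and list genes that lost their call in the larger set are named.

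As a family, the ABC genes did not move in 1 direction. Of the 35 genes, 10 (28.6%) were DE in limma at an adjusted p under 0.05, against 16.1% of all genes. There were 4 genes higher within WOS, namely *Abca4*, *Abcc9*, *Abcg1* and *Abcc5*, where 8.71% of all genes were called in that direction. Another 6 were higher outside WOS, namely *Abca13*, *Abca5*, *Abcb10*, *Abce1*, *Abcf1* and *Abcf2*, where 7.39% of all genes were called. When values were scaled to library size alone, 4 genes remained higher within WOS and 2 higher outside, *Abca5* and *Abca13* (5.22% of all genes were called outside WOS under that scaling, and 8.77% within). That scaling follows each rat's total, of which the gene AY172581.24 made up between 14.3% (rat 70) and 27.9% (rat 86). The part of this gene in the lost calls was not tested. The ages did not overlap in 5 ABC genes (14.3%), *Abca4*, *Abcc5*, *Abcc9*, *Abca13* and *Abcf1*, against 6.07% of all genes. The median log2 fold change (6 weeks over 10 weeks) was 0.012 over the ABC genes and 0.028 over all genes, with 19 ABC genes above 0 and 16 below, and it was -0.0085 under median-ratio scaling. Fold changes are on the scale of log2(normalized count + 1), so the change of genes with few counts is understated.

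**Figure D1:**
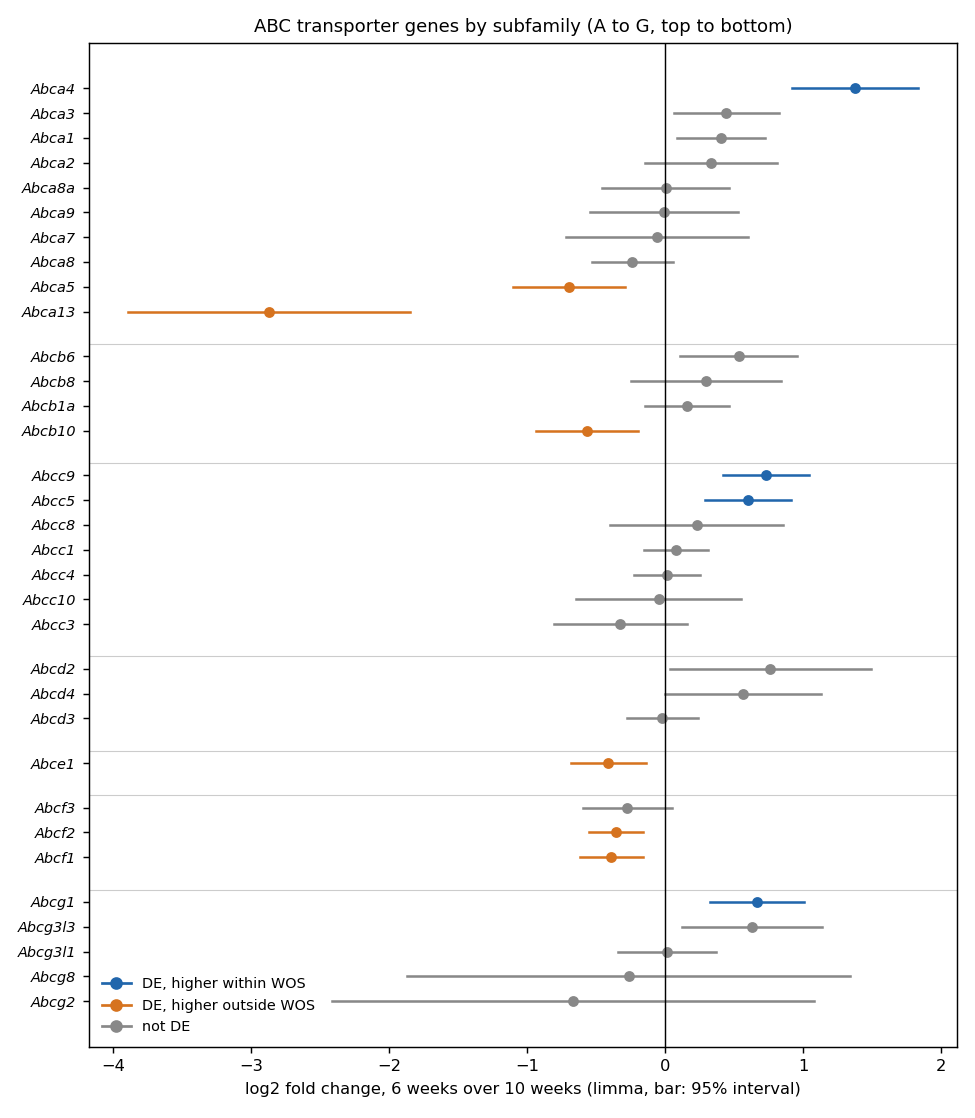
Log2 fold change of 33 ABC genes on the horizontal axis (6 weeks over 10 weeks, limma on log2(normalized count + 1), bar for the 95% interval), grouped from subfamily A at the top to G at the bottom. Blue points are DE and higher within WOS, orange points are DE and higher outside WOS, and grey points are not DE; *Abca13* lies farthest from 0, at -2.87.

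Subfamily A holds large full transporters that move lipids, and it gave the widest range of the family, from -2.87 to 1.38. *Abca13*, a very large member whose substrate is little known, had the greatest change. Its normalized count was 78 at the lowest, 223.5 at the median and 317 at the highest within WOS, against 337, 1586 and 2686 outside WOS. All 6 rats within WOS lay below all 7 outside WOS, although rat 81, with 337, stood close to them and far below the next 10-week rat, with 903. The log2 fold change was -2.87 ± 0.47 (SE; adjusted p = 0.00186), a 7.30-fold lower level within WOS. *Abca13* was DE with each rat left out in turn, and the larger set alone gave -3.50 and the smaller set -1.88. *Abca5*, a transporter of lysosomes and late endosomes, ran from 197 through a median of 274.5 to 395 within WOS and from 302 through 450 to 664 outside WOS. The ages overlapped at 2 rats within WOS (80 and 86, with 395 and 303) and at rat 81 outside, with 302. *Abca5* was 1.62-fold lower within WOS (log2 fold change -0.70 ± 0.19; adjusted p = 0.0259). The larger set alone gave -1.02 and the smaller set -0.18. *Abca5* was no longer DE without rat 70 (adjusted p = 0.0628), rat 72 (0.0519) or rat 84 (0.0593).

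*Abca4*, the retinoid transporter of photoreceptors, moved the other way at a low level. It had 29, 32 and 45 normalized counts within WOS (lowest, median and highest) and 8, 12 and 22 outside WOS. Every rat within WOS lay above every rat outside WOS, and rat 81 was again the 10-week rat nearest to the 6-week rats. Its level was 2.60-fold higher within WOS (log2 fold change 1.38 ± 0.21; adjusted p = 0.00118), with 1.36 in the larger and 1.42 in the smaller set. *Abca4* was DE with each rat left out, but a minimum of 10 in every rat removed it from the test. *Abca1*, which loads cholesterol and phospholipid onto apolipoprotein A-I, did not pass. Its normalized counts were 7943, 10512 and 12609 within WOS and 6547, 7009 and 9523 outside WOS. Of the rats within WOS, 4 of 6 lay above all 10-week rats. This left a log2 fold change of 0.41 (95% interval 0.086 to 0.73; adjusted p = 0.0789), with 0.15 in the larger set and 0.81 in the smaller set. *Abca3*, which loads surfactant lipids into lamellar bodies, had 0.44 (adjusted p = 0.102). The remaining 5 A genes, *Abca2*, *Abca7*, *Abca8*, *Abca8a* and *Abca9*, had log2 fold changes between -0.24 and 0.33. *Abca8*, *Abca8a* and *Abca9* are close copies between which reads could be split, so their values are uncertain.

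Subfamily B had 1 DE gene of 5. *Abcb10*, a transporter of the inner mitochondrial membrane that is needed for heme synthesis, had 121, 206.5 and 248 normalized counts within WOS and 231, 289 and 344 outside WOS. The ages overlapped between 231 and 248, where rats 71 and 80 within WOS met rat 81 outside WOS. *Abcb10* had a log2 fold change of -0.57 ± 0.17 (adjusted p = 0.0412), with -0.65 in the larger and -0.43 in the smaller set. When single rats were left out it passed in 3 of 13 cases (without rat 71, 80 or 81), and it was not DE under library size scaling (adjusted p = 0.107). *Abcb6*, which carries porphyrins, had 0.53 (adjusted p = 0.0843). It was DE in the larger set, with 0.81 (adjusted p = 0.00836), and had 0.02 in the smaller set. *Abcb8*, another mitochondrial transporter, had 0.30 (adjusted p = 0.444). The larger set gave 0.68 for *Abcb8* (adjusted p = 0.0383) and the smaller set -0.20. *Abcb1a*, which encodes the drug efflux pump P-glycoprotein, had 390, 586 and 674 within WOS and 381, 516 and 560 outside WOS. The ages overlapped although 4 rats within WOS lay above all 10-week rats, with a log2 fold change of 0.16 (95% interval -0.15 to 0.46; adjusted p = 0.471). Reads of *Abcb1a* could be shared with its close copy *Abcb1b*, which was not analysed here.

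Subfamily C gave 2 DE genes of 7, both higher within WOS with no overlap between the ages. *Abcc9* encodes the sulfonylurea receptor SUR2, the regulatory subunit of potassium channels that close when ATP is high. It had 833, 1078 and 1320 normalized counts within WOS and 464, 644 and 733 outside WOS. Rat 81 was the lowest of all, and the highest 10-week rat, rat 72, still lay below rat 70, the lowest at 6 weeks. The log2 fold change was 0.73 ± 0.14 (adjusted p = 0.00553), or 1.66-fold higher within WOS. *Kcnj8*, the channel pore that SUR2 pairs with in vascular smooth muscle and pericytes, had 0.24 (adjusted p = 0.405). *Abcc5*, an exporter of cyclic nucleotides, had 337, 388.5 and 537 within WOS and 223, 283 and 323 outside WOS. The highest values within WOS were those of rats 75 and 80, both of the smaller set. Its log2 fold change was 0.60 ± 0.14 (adjusted p = 0.0152), with 0.39 in the larger set and 1.001 in the smaller set. *Abcc9* likewise had 0.53 in the larger set and 1.04 in the smaller set, and both genes were DE with each rat left out. *Abcc1*, an exporter of glutathione conjugates and drugs, had 798, 944.5 and 988 within WOS and 665, 909 and 977 outside WOS. These ranges lay over each other, with a log2 fold change of 0.08 (95% interval -0.15 to 0.31; adjusted p = 0.651). *Abcc3*, *Abcc4*, *Abcc8* and *Abcc10* had log2 fold changes between -0.32 and 0.23, and none passed.

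Subfamily D, the transporters of peroxisomes and lysosomes, had 0 DE genes of 4 in limma and 3 with an unadjusted p under 0.05, a level that 4667 of all 14790 genes reached. *Abcd2*, which brings very long fatty acids into peroxisomes, had a log2 fold change of 0.76 (adjusted p = 0.14). It rests on few counts, 8 to 34 at 6 weeks and 4 to 14 at 10 weeks. *Abcd4*, which takes part in moving vitamin B12 out of lysosomes, had 0.56 (adjusted p = 0.158). *Abcd3*, another peroxisomal carrier, had -0.02 with a 95% interval of -0.27 to 0.24, and its sign turned under library size scaling, where all 4 D genes lay above 0.

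Subfamilies E and F hold the soluble members. *Abce1* splits ribosomes into subunits after termination, and the F genes act in translation initiation and ribosome rescue. All 4 had a log2 fold change below 0, under each scaling, with each rat left out and in either set of rats. Of all genes, 7026 of 14790 lay below 0 with all rats. In that fit 3 of the 4 were DE and higher outside WOS, against 7.39% of all genes. *Abce1* had 1913, 2570.5 and 2918 normalized counts within WOS and 2749, 3400 and 3852 outside WOS. Rats 84 and 86 within WOS and rats 81 and 83 outside WOS made up the overlap. Its log2 fold change was -0.41 ± 0.13 (adjusted p = 0.0422). When single rats were left out, *Abce1* passed in 3 of 13 cases, without rat 81, 83 or 86. *Abcf1*, which binds initiation factor eIF2, had 808, 1025 and 1068 within WOS and 1108, 1238 and 1444 outside WOS. The ages did not overlap, and the closest rats were rat 70 within WOS and rat 85 outside WOS. *Abcf1* had a log2 fold change of -0.39 ± 0.10 (adjusted p = 0.026) and was not DE without rat 74 (adjusted p = 0.0529). *Abcf2* had 881, 937 and 1076 within WOS and 1054, 1254 and 1358 outside WOS. Rat 80 at 6 weeks and rat 81 at 10 weeks were the only 2 to cross. *Abcf2* had -0.35 ± 0.09 on the log2 scale (adjusted p = 0.0214) and was not DE without rat 70 (adjusted p = 0.0529). *Abcf3* had 343, 414.5 and 486 within WOS and 384, 476 and 681 outside WOS, with -0.27 (adjusted p = 0.225).

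These changes were small, at 1.28-fold for *Abcf2*, 1.31-fold for *Abcf1* and 1.33-fold for *Abce1*. *Abcf2* and *Abcf1* also varied least of the 35 genes among rats of 1 age, with a within-age SD of 0.12 and 0.15 on the log2 scale. At the other end, *Abcg2* had 1.58 and *Abcg8* 1.46. The calls of *Abce1*, *Abcf1* and *Abcf2* were all lost under library size scaling, where the adjusted p rose to 0.0625, 0.0795 and 0.075 and the log2 fold changes were -0.37, -0.34 and -0.31. The larger set of rats gave -0.42, -0.34 and -0.39 for these 3 genes, and the smaller set -0.48, -0.47 and -0.28.

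Promoters were read from RefSeq for 27 of the 35 genes, as 250 bases before the gene's start on GRCr8. Both strands were searched for the TATA box (TATAAA), the CCAAT box (CCAAT), the GC box (GGGCGG), an E-box (CACGTG), the ETS core (CCGGAAG) and the cAMP response element (TGACGTCA), none of which contains another. TGACGTCA was found in 3 of the 27 ABC promoters (11.1%), against 1.7% of 27457 promoters and 2.85% of the 10104 promoters of genes in the table. The 3 genes were *Abce1*, *Abcf2* and *Abcg2*, of which the first 2 were DE and lower within WOS. *Abcf3* had no such match and *Abcf1* had no promoter entry, so the word was not found in every soluble member. The 3 stretches are shown because they hold the word, with TGACGTCA in capitals and the strand of each gene (plus) read 5′ to 3′. They lie at chr19:45109813-45109842, chr4:11487180-11487209 and chr4:89075401-89075430, in that order.
Abce1: tcgcagcacgaTGACGTCAcagcgccacac
Abcf2: gcgcgttctgaTGACGTCAcgagaactgcg
Abcg2: gcggcgcgagcTGACGTCAccgcggcggag

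Counted from -1 at the base before the start, the matches begin at -111, -131 and -62. The stretches of *Abcf2* and *Abcg2* fall inside the outermost RefSeq span of their genes, which other transcripts enter upstream. GGGCGG stood in 18 of the 27 (66.7%), against 58.1% for genes in the table, and CCGGAAG in 4 (14.8%, against 14.2%). CCAAT stood in 7 (25.9%, against 35.2%), TATAAA in 3 (11.1%, against 6.89%) and CACGTG in 2 (7.41%, against 7.89%). *Abca13* and *Abca4* had none of the 6 words in their window. A match describes the letters alone.

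In subfamily G, whose members carry sterols, urate and drugs, 1 of 5 genes was DE. *Abcg1*, which passes cholesterol to high-density lipoprotein, had 997, 1326 and 1580 normalized counts within WOS and 558, 870 and 1119 outside WOS. Rat 86 within WOS, with 997, and rat 85 outside WOS, with 1119, made up the overlap. *Abcg1* was 1.59-fold higher within WOS (log2 fold change 0.67 ± 0.16; adjusted p = 0.0147). It was DE with each rat left out in turn, and had 0.75 in the larger set and 0.54 in the smaller set. *Abcg3l3*, a rodent relative of *Abcg2*, had 0.63 (adjusted p = 0.0837) and its copy *Abcg3l1* had 0.02, and reads could be split between them. *Abcg8*, which pairs with another G protein to excrete sterols, had 25 normalized counts or fewer in every rat and was listed at 0 in rat 81.

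*Abcg2* encodes the breast cancer resistance protein, which carries riboflavin and many drugs into milk. It had 2, 58.5 and 142 normalized counts within WOS and 31, 54 and 283 outside WOS. The range within each age was wider than the difference between them, since rat 80 held the 2 and rat 81 the 283. Its log2 fold change was -0.67 ± 0.81 (95% interval -2.41 to 1.08; adjusted p = 0.605), and it changed sign to 0.083 without rat 80. The larger set gave 0.56 and the smaller set -2.99. Beside the summed normalized count of the milk protein genes (*Csn1s1*, *Csn1s2a*, *Csn1s2b*, *Csn2*, *Csn3*, *Wap* and *Lalba*), a comparison chosen after the values were seen, rat 81 was highest in both, with a sum of 221465. Within WOS, rats 84, 86 and 70 held the highest 3 values of *Abcg2* (142, 112 and 84) and of the milk sum (50656, 57169 and 30779). Outside WOS the order was not shared below rat 81, since rat 78 had the lowest *Abcg2*, with 31, and the next highest milk sum, with 49028. In limma, 0 of the 7 milk protein genes were DE, with 0 at an unadjusted p under 0.05.

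**Figure D2:**
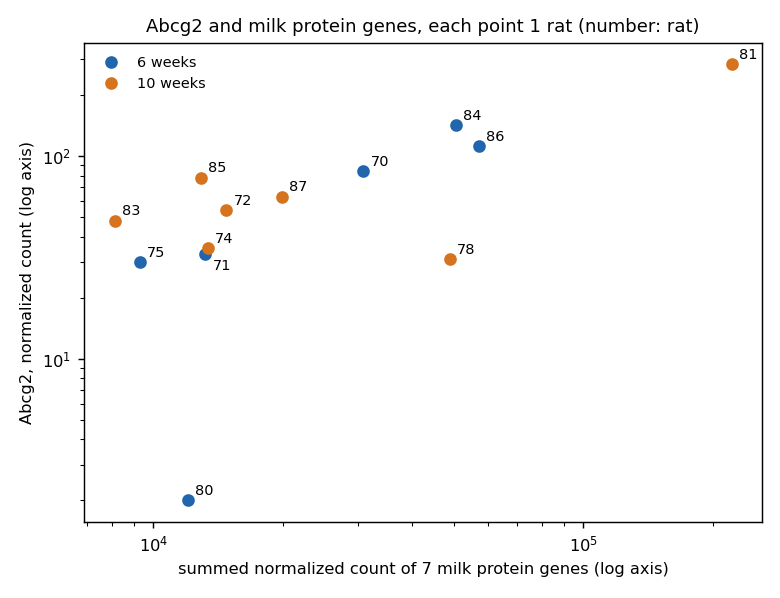
Normalized count of *Abcg2* on the vertical axis (log scale) against the summed normalized count of 7 milk protein genes on the horizontal axis (log scale), with 1 point per rat labelled by its number, blue at 6 weeks and orange at 10 weeks. Rat 81 is at the upper right with 283 and 221465, and rat 80 is lowest for *Abcg2* with 2.

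**Figure D3:**
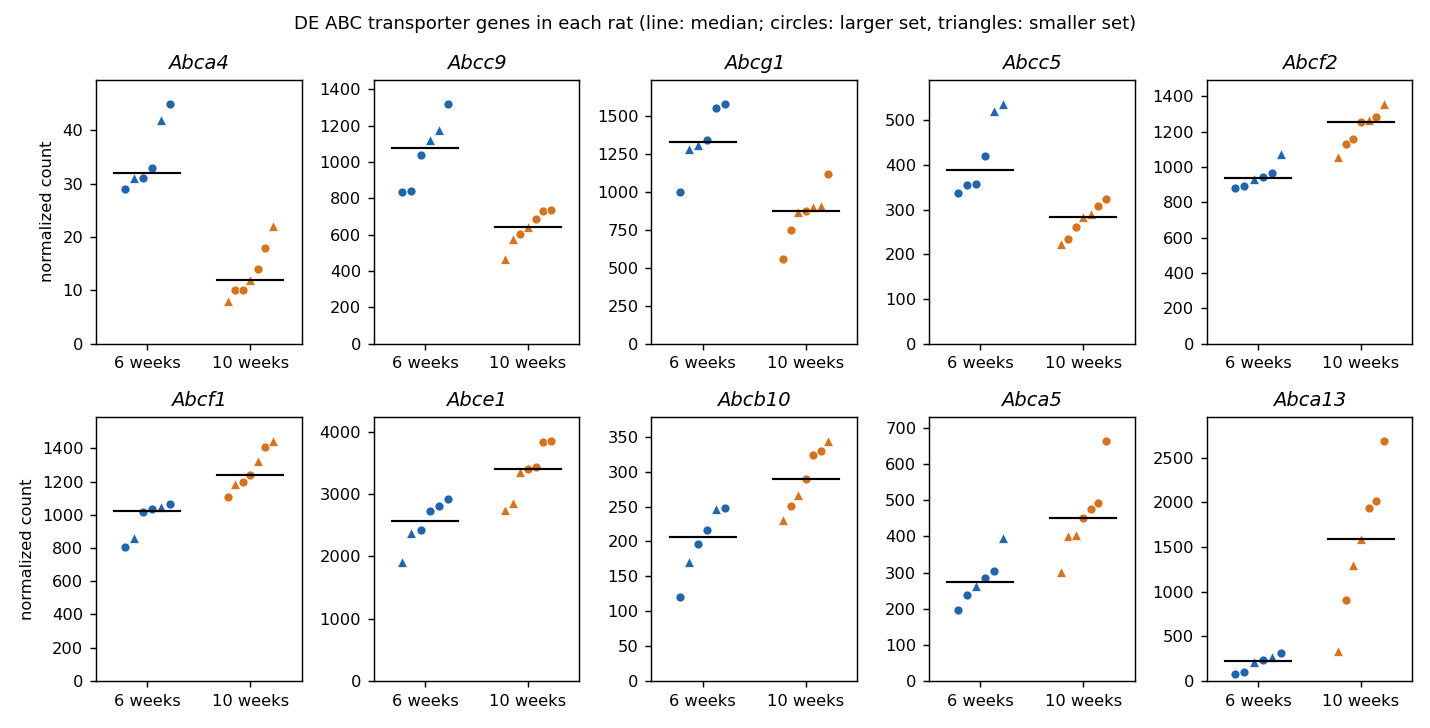
Normalized counts of the 10 DE ABC genes in each rat, with 1 panel per gene, 6-week rats in blue and 10-week rats in orange, circles for the larger set of rats, triangles for the smaller set and a line at the median of the age. The ages do not overlap in *Abca4*, *Abcc9*, *Abcc5*, *Abcf1* and *Abca13*, and rat 81 (337) is the low point of *Abca13* at 10 weeks.

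Genes that work with the ABC members were followed in 10 lists, in the same fit. Each count of DE genes in them stands against 16.1% of all genes DE (8.71% higher within WOS and 7.39% higher outside), and shares such as 2 of 14 (14.3%), 2 of 18 (11.1%), 1 of 9 (11.1%) or 1 of 17 (5.88%) were near or below it. In cholesterol efflux and its LXR regulators, 2 of 15 genes were higher within WOS, *Npc1* (0.35), which moves cholesterol out of late endosomes, and *Lpcat3* (0.37), which remodels phospholipids. *Apoe* had 0.60 and the LXR genes *Nr1h2* and *Nr1h3* had 0.51 and 0.15, and none of the 3 passed. In sphingolipid and surfactant metabolism, 3 of 9 rose within WOS, among them *Smpd1* (0.72), an enzyme of lysosomal sphingolipid breakdown, and the surfactant protein gene *Sftpc* (1.68), which rests on 14 counts or fewer. Among 18 regulators of drug transport and metabolism, the 2 that passed were *Cyp1b1* (1.28), which oxidizes estrogens and aromatic hydrocarbons, and the carboxylesterase *Ces1d* (2.34). Of 8 genes of bile acid and organic anion transport, the bile acid carrier *Slc10a1* was lower within WOS (-1.39).

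For the organelle members, 1 of 17 peroxisome and vitamin B12 genes was DE, *Mmachc* (-0.81), which processes vitamin B12. In mitochondrial heme and iron-sulfur synthesis, 2 of 14 were higher within WOS, *Alas2* (1.44) and *Fech* (0.67), the erythroid first enzyme and the last enzyme of heme synthesis. That is the opposite direction to *Abcb10*, and *Alas2* also stands among the red blood cell markers below. In ribosome recycling and initiation, 8 of 10 genes lay below 0 with a median of -0.20. *Eif5b* (-0.51), which joins ribosome subunits, and *Eif3j* (-0.49), which acts with *Abce1* in recycling, were lower within WOS. *Pelo* (0.41), which rescues stalled ribosomes ahead of *Abce1*, was higher within WOS. Of the ABC genes that carry other names, the peptide transporter *Tap1* had 862, 1171.5 and 1372 normalized counts within WOS and 411, 585 and 874 outside WOS. It was DE at 0.90 (adjusted p = 0.00498), with 1 value outside WOS above the lowest within. *Tap2*, its partner, had 0.91 (adjusted p = 0.126) and the chloride channel gene *Cftr* had -0.46 (adjusted p = 0.356). In the peptide loading complex and immunoproteasome, *Psmb9* (0.79) was 1 of 9 that passed. Of the 17 DE genes in these lists, 13 were no longer DE without rat 84 and 11 without rat 70. *Tap1*, *Cyp1b1*, *Ces1d* and *Pelo* were DE with each rat left out, whereas of 13 such fits *Npc1* passed in 4, *Lpcat3* and *Psmb9* in 6, *Sftpc* in 3, *Eif3j* and *Mmachc* in 8 and *Eif5b* in 9. In the larger set of rats *Npc1*, *Lpcat3*, *Sftpc*, *Fech*, *Eif3j* and *Eif5b* were not DE, with adjusted p from 0.0521 for *Eif3j* to 0.158 for *Npc1*. In the smaller set all 17 lost their call. Over all genes, the number DE was 1411 without rat 70 and 1488 without rat 84, against 2381 with all rats.

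Markers of other cell types were followed in the same way, and the gene named as leading a list is the one with the highest normalized count, which is not corrected for transcript length. Of 7 fibroblast genes, 3 were DE and higher within WOS, and their summed normalized count was 106623, 186160.5 and 222446 within WOS (lowest, median and highest) against 19573, 49799 and 55796 outside WOS, led by *Col3a1*. The 3 were *Col3a1*, *Col1a1* and *Lum*, while *Pdgfra* had 0.13, *Dcn* and *Dpt* did not pass either (adjusted p = 0.197 and 0.124), and *Fbln1* lay below 0 (-0.24). Of 6 pericyte genes, *Pdgfrb*, *Mcam* and *Cspg4* were higher within WOS, with a sum of 5338, 5901.5 and 7992 against 3076, 4388 and 4928, led by *Notch3*. With single rats left out, *Pdgfrb* passed in all 13 cases, *Cspg4* in 4 and *Mcam* in 1. In the larger set of rats *Pdgfrb* (0.53, adjusted p = 0.139) and *Mcam* (0.18, adjusted p = 0.255) were not DE, nor was *Pdgfrb* with sample quality weights (adjusted p = 0.0507). Neither sum overlapped between the ages. The DE genes and the sums of these lists were higher within WOS, as were *Abcc9*, *Abcc5*, *Abcg1* and *Abca4*. Their part in those results was not tested, and in bulk RNA fewer cells of a type and less RNA per cell cannot be told apart.

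All 7 mast cell genes were higher within WOS, led by *Mcpt1l1*, with a sum of 795, 1593 and 2068 against 48, 110 and 479. *Hdc* of these passed in 5 of the 13 fits with a rat left out and did not pass with a pseudocount of 0.1 (adjusted p = 0.112). All 5 entries for red blood cells, of which *Hba-a2* holds 2, were higher too, led by *Hbb*, with 1854, 3224.5 and 5679 against 254, 495 and 1226. Of 17 cell cycle genes, 16 were higher within WOS, among them *Kif23*, *Cenpf* and *Bub1*, led by *Mki67*, with 3951, 5549 and 7935 against 567, 957 and 2040. *Plk1* passed in 7 of the 13 fits with a rat left out and did not pass with a pseudocount of 0.1 (adjusted p = 0.0907). Of the adipocyte genes 3 of 8 were DE and higher, *Adipoq*, *Plin1* and *Cfd*, all at low counts. *Cfd* passed in 5 of the 13 fits with a rat left out, and with a pseudocount of 0.1 *Adipoq* (adjusted p = 0.0537) and *Plin1* (0.0533) did not pass. The adipocyte sum, mostly *Fabp4*, overlapped (1841, 2269.5 and 2678 against 1994, 2163 and 3051). Of the macrophage genes, which mark cells rich in *Abca1* and *Abcg1*, 0 of 9 were DE in limma (1 at an unadjusted p under 0.05), with a sum of 875, 1277 and 2005 against 1019, 1138 and 2250, led by *Lyz2*. Likewise 0 of 8 endothelial genes were DE in limma (1 at an unadjusted p under 0.05), with a sum of 9411, 12951.5 and 15819 against 9631, 11420 and 15063, led by *Flt1*. Of 5 lymphocyte genes 1 was DE, *Cd79b*, at 16 counts or fewer and not in the larger set of rats (adjusted p = 0.162), and the sum, led by *Ptprc*, was 164, 307.5 and 460 against 227, 317 and 706. No marker could be at 0 in every rat, since no gene with a mean under 1 was present. Listed markers without values could not be followed. Values were present for 5 of 9 lymphocyte, 4 of 9 red blood cell and 8 of 11 adipocyte symbols.

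On the epithelial side, *Epcam* (-0.39) and *Cdh1* (-0.47) of the 7 defining genes were lower within WOS. Their summed normalized count was 39191, 52189.5 and 58455 within WOS against 53730, 61376 and 69865 outside WOS. Of 14 luminal genes 1 was DE, the receptor gene *Kit* (-0.71), and of 11 basal genes 1 was DE, *Cnn1* (-0.46), which encodes a contractile protein. These shares (7.14% and 9.09%) were close to the 7.39% of all genes called higher outside WOS. With single rats left out, *Cdh1* passed in all 13 cases, *Kit* and *Cnn1* in 4 each and *Epcam* in 0. In the larger set of rats *Epcam* (adjusted p = 0.213) and *Cnn1* (0.0923) were not DE. Other members of these lists lay on the other side, with 3 of 7 defining genes above 0 (*Krt5*, *Krt14* and *Krt19*), as were 4 of 14 luminal and 5 of 11 basal genes. *Epcam*, *Cdh1*, *Kit* and *Cnn1* moved in the same direction as *Abca13*, *Abca5*, *Abcb10*, *Abce1*, *Abcf1* and *Abcf2*, and their part in those results was not tested. Like *Abce1*, *Abcf1* and *Abcf2*, the genes *Epcam*, *Kit* and *Cnn1* were not DE under library size scaling, while *Cdh1* was.

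Rats differed in the family as a whole. *Abca1* alone made up between 29.3% and 47.5% of the summed normalized count of the 35 genes, and the family made up between 0.135% and 0.200% of a rat's total. Rat 81 had the lowest share, 0.135%, and the lowest value of its age in 12 of the 35 genes. It was also the 10-week rat nearest to the 6-week rats, or overlapping them most, in 5 of the 10 DE genes, *Abca13*, *Abca4*, *Abca5*, *Abcb10* and *Abcf2*. Rat 80 had the highest share, 0.200%, with the highest value of its age in 9 genes and the lowest in 8. Rat 70 was lowest of its age in 11.

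**Figure D4:**
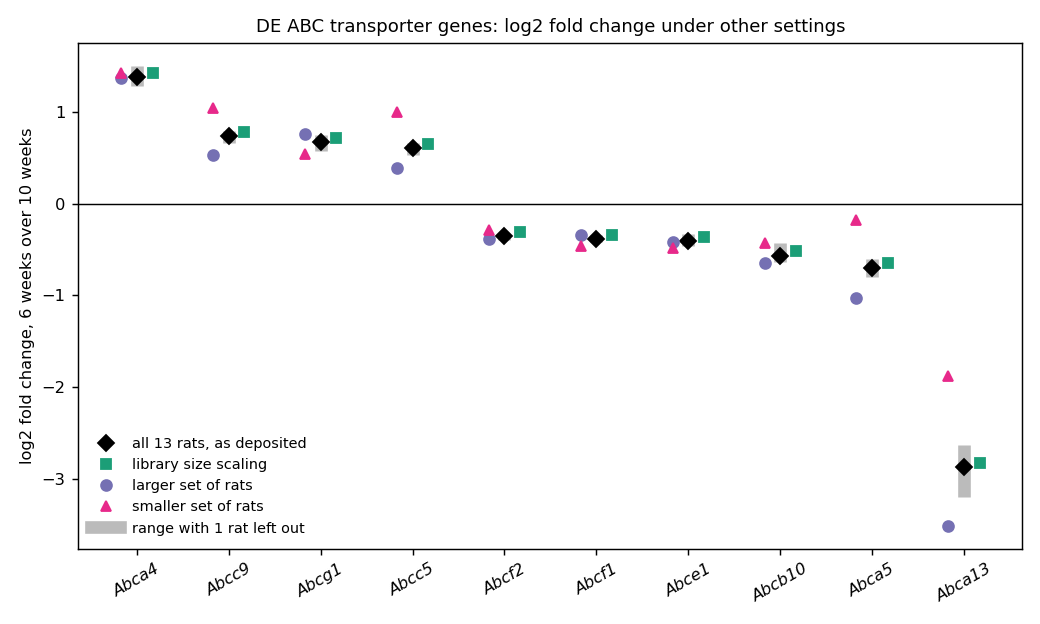
Log2 fold change of each of the 10 DE ABC genes (6 weeks over 10 weeks) for all 13 rats (black), under library size scaling (green), in the larger set of 8 rats (purple) and in the smaller set of 5 rats (pink), with a grey bar for the range when 1 rat was left out. No gene changes sign, and *Abca13* and *Abca5* differ most between the sets of rats.

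In the larger set of 8 rats, *Abca13*, *Abca5*, *Abca4*, *Abce1* and *Abcf2* were DE again, where 13.4% of all genes were called within WOS and 10.1% outside. *Abcc9*, *Abcg1*, *Abcb10*, *Abcc5* and *Abcf1* had adjusted p between 0.0526 and 0.0917 there, and all 10 kept their sign. In the smaller set, with 2 rats against 3, limma called 0 ABC genes and 0 of all 14790 genes, with 8 ABC genes and 1993 of all genes at an unadjusted p under 0.05. Here too the 10 genes kept their sign. The difference between the sets was not tested.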

How the data were processed

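RNA-seq of mammary epithelial cells covered 6 rats at 6 weeks and 7 at 10 weeks. Counts came from RSEM 1.2.22, and the authors scaled each library and rounded, so the unit of the deposited values is a score, namely normalized counts. Some whole numbers from 1 to 30 do not occur in 7 rats. Per the labels, the processing notes name rn5, edgeR and DESeq2, while the annotation is not given in the sources used here. The authors' deposited comparison (fold changes, mean abundances, test statistics, p-values, calls and cell location) was not used.

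All 14790 genes were tested with limma (version 3.58.1, under R 4.3.3) after log2(normalized count + 1), two-sided, with no covariate, after Benjamini-Hochberg at 0.05, in place of a test for raw counts. The fit was tested on simulated data in which genes varied independently of each other. That test therefore does not cover the variation that genes share in these rats. Sequences came from RefSeq (GRCr8) by symbol. Figures and sums used Python 3.11.15.

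Members and lists were chosen with earlier results of these data known. A few genes are not reported here by name. Named in full were DE genes, those without overlap and *Abca1*, *Abcb1a*, *Abcc1* and *Abcg2*; of lists, DE genes where 5 or fewer, otherwise the 3 with the smallest adjusted p. Alternatives were median-ratio, upper quartile and library size scaling, at least 10 in every rat, a pseudocount of 0.1, sample quality weights and limma-trend. Others were each set of rats, each rat left out, and the first residual component as a term, which cannot change a fold change between the ages. A setting with no minimum was the main fit run again.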

Additional observations from a re-analysis of the deposited data

Results flagged for a closer look

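In 4 of the 70 groups made by 35 ABC genes and 2 ages, 1 rat stood apart from the others of its age. The measure was the gap to its nearest neighbour as a share of the range of the group. Gap and range were taken on the scale of log2(normalized count + 1), so the shares differ from those of the printed counts. Chance alone sets a rat apart in about 1 in 20 groups. *Abca2*, an ABC transporter of lysosomes, was lowest within WOS in rat 86, with a normalized count of 473 against 697 in the next rat (share 0.635 on the log2 scale). *Abcd3* was lowest within WOS in rat 80, with 478 against 618 (share 0.631). *Abcg2* was highest outside WOS in rat 81, with 283 against 78 (share 0.586), and the same rat had the highest milk protein sum. *Abcg3l1* was lowest outside WOS in rat 83, with 62 against 91 (share 0.588).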

How the results depend on the processing

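The 4 ABC genes higher within WOS and the 6 higher outside were the same genes under median-ratio and upper quartile scaling. They were also the same for a pseudocount of 0.1, for limma-trend and in a fit that added the first residual component. The setting with no minimum repeated the main fit, so its calls could not differ. Library size scaling left 2 higher outside. A minimum of 10 in every rat kept 31 genes and removed *Abca4*. Sample quality weights gave 10 within and 7 outside, where 38.2% of all genes were called. The larger set of rats gave 4 within, of which only *Abca4* was shared, and 5 outside, of which 4 were shared. The smaller set gave 0 in both directions and 0 list genes, against 58. With 1 rat left out, 4 to 6 were higher within WOS and 2 to 6 outside (2 without rat 70, 3 without rat 72, 74 or 84). The share of all genes called outside WOS was 4.11% without rat 70, against 7.39% with all rats. It was 4.71% without rat 72, 4.69% without rat 74 and 4.26% without rat 84. Within WOS the share ran from 5.43% without rat 70 to 9.88% without rat 81. In these fits 37 to 59 list genes were DE, 37 without rat 84 and 38 without rat 70. The family median ran from 0.0021 to 0.095 with 1 rat left out, and over all alternatives from -0.0085 (median-ratio scaling) to 0.10 (smaller set). Among the 14 ABC genes named in full, *Abcc1* turned sign in the larger set (-0.044). *Abcg2* turned sign in the larger set (0.56) and without rat 80 (0.083), where single rats left out gave -1.03 to 0.083. Signs of other ABC genes turned too, among them *Abcd3* under library size scaling, and *Abcc3* (0.32) and *Abcg8* (1.90) in the smaller set. The cause was not tested. The median of all genes moved from 0.028 to 0.074 under library size scaling. No paired analysis was possible because the ages share no rat numbers. Depth before scaling is not known here, which limits genes with few counts such as *Abcd2* and *Abcg8*.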
